A study of Arabidopsis thaliana with 10 samples.

Results

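The L4-only peaks are sites on the nuclear chromosomes where chromatin immunoprecipitation of YFP-tagged LIMYB gave a peak in Arabidopsis line L4 and no overlapping peak in line L1. They were taken from the deposited L4 list, counting each peak once by its position on chromosomes 1 to 5, and were chosen by the position of the called peaks, keeping those that overlapped no L1 peak by at least 1 bp. This left 4636 of 8952 nuclear L4 peaks, out of 18916 peaks in the 3 lists of the study. The share was 51.8% (95% Wilson interval 50.8 to 52.8), which covers counting error only. Seen from the other list, 5285 of 9604 nuclear L1 peaks (55.0%, 54.0 to 56.0) overlapped no L4 peak.

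LIMYB is a MYB-domain transcriptional repressor that acts in the nucleus downstream of NIK1, a plasma membrane receptor kinase with antiviral function in Arabidopsis. NIK1 phosphorylates the ribosomal protein RPL10, which then moves to the nucleus and meets LIMYB there. The pathway is known for lowering the expression of translation genes. The study asked which genes are under LIMYB control.

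All samples were seedlings labelled as LIMYB overexpression lines with a YFP-LIMYB transgene, grown for up to 12 days. All sample titles carry the designation LIMYB-32 before the label L1, L3 or L4. In each, 600 mg of tissue was crosslinked with 1% formaldehyde and precipitated with an anti-GFP antibody. L4 had 4 samples, with replicate numbers 1 and 2 each under a pair of title suffixes, L3 had 4 of the same kind, and L1 had 2. The labels give neither the transgene's promoter nor whether the lines are independent, and no input or untagged control is among the samples. Each line had a single peak list with no sample columns, so no value carries a replicate error and no difference between lines was tested. L3 had 12 peaks and none on a nuclear chromosome. A site missing from the L1 list was not called there, which does not show that L1 had no signal: the lowest nuclear pileup called was 8 fragments in L1 and 7 in L4.

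L4-only peaks were lower and narrower than the L4 peaks that L1 shared, and their ranges overlapped almost completely. The values that follow are the authors' own per peak, they bear on whether a peak is called at all, and they are given as a description. Fold enrichment is a peak's signal over a background that the sources used here do not define, since no control track is named. It had a median of 10.90 in L4-only peaks (quartiles 9.09 and 13.24) and 12.45 in shared L4 peaks (quartiles 10 and 17.07). Pileup, the number of overlapping fragments at the summit, had a median of 16 in L4-only peaks (13 and 20) and 20 in shared L4 peaks (15 and 30). Both sets thus began at similar low values and differed mainly in the upper tail. The median −log10 q was 9.92 in L4-only peaks and 13.41 in shared L4 peaks. The median width was 223 bp in L4-only peaks and 255 bp in shared L4 peaks, and 21.3% of L4-only peaks, against 10.2% of shared L4 peaks, had the smallest width of 200 bp. L1-only peaks, the matching set of the other line, had a median pileup of 17 and a median width of 212 bp.

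The share of L4 peaks without an L1 partner fell with pileup and with width. Of L4 peaks with a pileup of 11 to 12, 67.7% (64.6 to 70.7) were L4-only, and of those with 21 to 30, 41.8% (39.6 to 44.1) were. Among the 74 L4 peaks above 100 fragments, 3 were L4-only (4.05%, 1.39 to 11.3). By width, 69.2% of the 200-bp peaks and 30.4% of those over 400 bp were L4-only. By fold the decline did not hold at the low end. Of the 145 L4 peaks with a fold up to 5, 37.9% (30.4 to 46.0) were L4-only. The share was 61.7% above 5 and up to 8, and 39.8% above 15 and up to 20. How far pileup and width go together was not computed, and their separate parts in this decline were not tested.

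**Figure D1:**
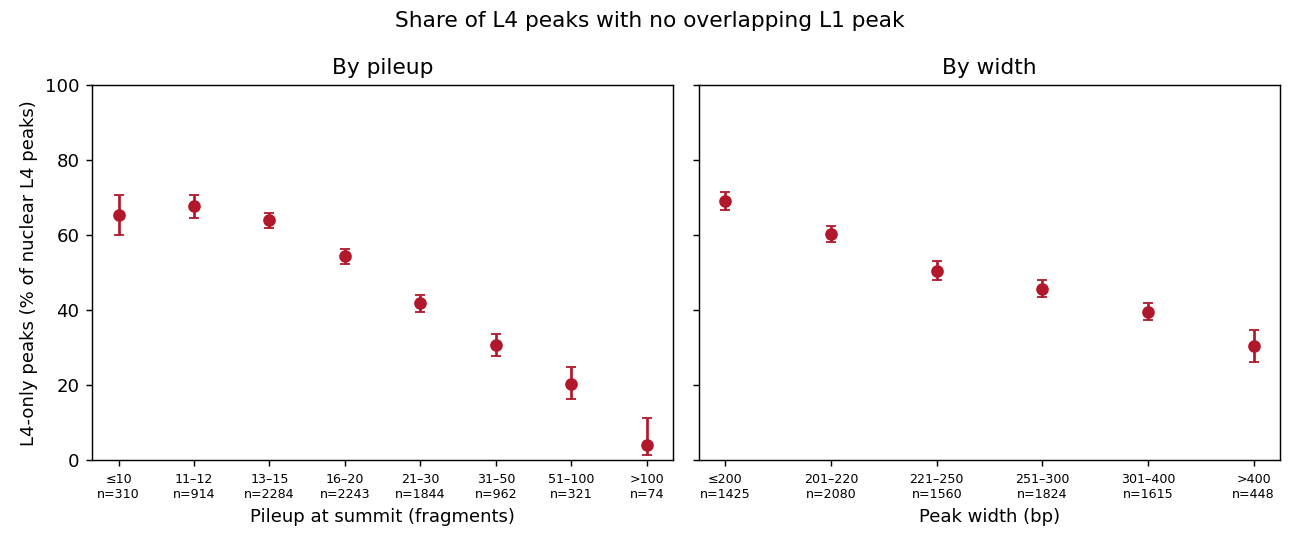
Share of nuclear L4 peaks that overlap no L1 peak (%, y axis) by pileup at the summit (left, fragments) and by peak width (right, bp), with 95% Wilson intervals and the number of L4 peaks under each point. The share is 64.0% to 67.7% at pileups up to 15 and 4.05% above 100 fragments.

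Most L4-only peaks lay more than 1000 bp from the nearest L1 peak. The rule leaves only peaks without overlap, and the gap that L1 peak density alone would give was not computed. The gap to the nearest L1 peak had a median of 4260 bp (quartiles 1718 and 8367), and its largest value was 53962 bp. An L1 peak lay within 100 bp of 15 L4-only peaks, within 500 bp of 312 (6.73%) and within 1000 bp of 691 (14.9%). For 884 (19.1%) there was none within 10000 bp. Within the L4 list itself, 595 L4-only peaks (12.8%, 11.9 to 13.8) and 654 shared L4 peaks (15.2%, 14.1 to 16.3) had another L4 peak within 1000 bp. The neighbour of these L4-only peaks was a shared peak in 285 cases and another L4-only peak in 310.

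Folds overlapped between the peaks just inside and just outside the overlap rule, and were mostly higher in the 5 just inside. The closest of the L4-only peaks was upstream of AT5G26180 on chromosome 5, at 9148812 to 9149121, with a fold of 16.92 and 3 bp from an L1 peak with a fold of 7.83. Next came a peak inside AT1G49740 (fold 7.43, gap 8 bp). The next lay inside YSL6, which encodes a metal-nicotianamine transporter (11.68, 19 bp), followed by one inside SIP2, for an alpha-galactosidase (15.57, 31 bp). The fifth was upstream of EIF2, a translation initiation factor gene (10.90, 32 bp). Just outside the rule, the smallest overlaps were 2 bp upstream of AT5G19580 (fold 7.78) and 7 bp upstream of NRAMP4, a metal transporter gene (10.90). The next were 8 bp at AT5G34581 (4.11), 10 bp upstream of AT5G14980 (8.60) and 13 bp upstream of AT5G41170 (9.34).

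A small number of L4-only peaks were among the strongest in the L4 list. With limits chosen after the values were seen, 276 of the 925 nuclear L4 peaks with a fold of 20 or more were L4-only (29.8%, 27 to 32.9), and 26 of the 125 with 30 or more (20.8%, 14.6 to 28.7). Of the 276, 109 lay inside the assigned gene, 84 upstream of it within 10000 bp and 10 farther than 10000 bp away, and 68 had no L1 peak within 10000 bp. Their pileups ran from 26 to 115 fragments.

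The highest fold, 39.33 with 59 fragments, was inside AT1G22000 on chromosome 1, at 7744904 to 7745203. The nearest L1 peak was 10456 bp away. HL (AT5G54390), for a HAL2-like phosphatase, had a fold of 39.15 with 83 fragments inside the gene, 7483 bp from an L1 peak. The nearest L1 peaks of these genes had folds of 9.40 and 9.90, where L1-only peaks had a median of 8.16 and an upper quartile of 9.43. A peak on chromosome 3 at 12410721 to 12411012 had a fold of 37.88 but was 33661 bp from its assigned gene, AT3G30768. AT1G51040 had 37.37 inside the gene, AT3G60940 had 36.03 at 389 bp downstream and MES11, a methyl esterase family gene, had 34.21 at 4376 bp downstream. SIP1 (AT1G55740), a seed imbibition gene, had 33.33 inside. The other 3 of the 10 highest lay upstream of genes and open the account of promoters below.

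By pileup the order differed, and some of the tallest peaks had low folds. The peak across the 5′ end of AT2G08986 on chromosome 2 had 214 fragments and a fold of 2.89. One on chromosome 5, 92463 bp from AT5G30520, had 131 fragments and a fold of 2.47. The third, 4820 bp downstream of AT4G08878, combined 115 fragments with a fold of 25.44 and stood 21943 bp from any L1 peak. AT2G07701 had 100 fragments upstream (fold 8.90), and AT3G23370 had 99 inside the gene (30.75), 149 bp from an L1 peak with 16 fragments. The 5 widest peaks were modest in fold: 897 bp inside AT1G51530 (12.87), 732 bp across the 5′ end of AT2G04680 (10.29), 726 bp inside EMB1674 (10.12), 705 bp far from AT1G38950 (8.47) and 657 bp upstream of AT2G07689 (3.48).

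L4-only peaks lay inside genes more often, and far from genes less often, than shared L4 peaks. Of L4-only peaks 31.6% (30.3 to 33.0) were inside the assigned gene, against 23.7% (22.5 to 25) of shared L4 peaks. Beyond 10000 bp from the gene lay 8.61% (7.83 to 9.45) of L4-only peaks and 14.2% (13.2 to 15.3) of shared L4 peaks. The 3′ end was crossed by 6.06% (5.41 to 6.79) of L4-only peaks and 8.20% (7.42 to 9.06) of shared L4 peaks. Intervals overlapped for peaks upstream within 10000 bp (34.2% of L4-only and 34.9% of shared L4 peaks), downstream within 10000 bp (13.5% and 13.8%) and across the 5′ end (6.06% and 5.03%). A single L4-only peak covered a whole gene. Peaks are not independent replicates, so these shares were not tested. L1-only peaks lay between the L4-only and the shared L4 peaks inside genes (28.1%, 26.9 to 29.3) and beyond 10000 bp (10.2%, 9.43 to 11.1).

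Among peaks of similar pileup these differences were smaller, in fewer peaks and with wider intervals. Whether height accounts for them was not tested. Among peaks with a pileup of 13 to 15, 30.7% (28.4 to 33.1) of 1462 L4-only peaks and 27.9% (24.9 to 31.0) of 822 shared L4 peaks were inside genes, so that the intervals overlapped. Beyond 10000 bp the shares in this band were 7.46% (6.22 to 8.92) of L4-only and 9.49% (7.67 to 11.7) of shared L4 peaks. Taken by class, 58.8% (56.9 to 60.8) of all L4 peaks inside genes were L4-only, against 39.5% (36.5 to 42.5) of those beyond 10000 bp. Peaks beyond 10000 bp had a median pileup of 17 when L4-only and 24 when shared. Inside genes these medians were 16 and 19.

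**Figure D2:**
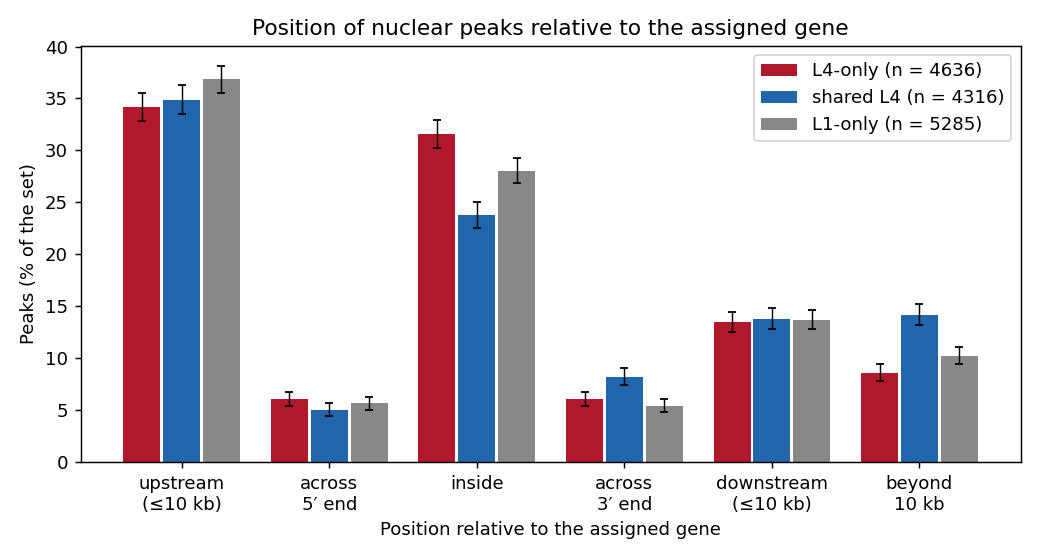
Position of L4-only, shared L4 and L1-only peaks relative to the gene the authors assigned (x axis), as a percentage of each set (y axis, bars from 0) with 95% Wilson intervals. The inside class holds 31.6% of L4-only, 23.7% of shared L4 and 28.1% of L1-only peaks.

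Within genes, the middle held the most L4-only summits. Of the 1465 L4-only peaks inside genes, 46.0% (43.5 to 48.6) had the summit in the middle of 3 equal parts of the gene, 31.8% (29.5 to 34.2) in the 5′ part and 22.2% (20.1 to 24.4) in the 3′ part. Shared L4 peaks inside genes had 48.4%, 30.9% and 20.7% in these parts, with overlapping intervals. A peak counted as inside must lie wholly within the gene, which keeps summits off both ends.

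Around 5′ ends, L4-only summits were as frequent as shared L4 summits just upstream within overlapping intervals, and more frequent just downstream. Within 500 bp upstream lay 617 L4-only summits (13.3%, 12.4 to 14.3) and 579 shared L4 summits (13.4%, 12.4 to 14.5). Within 500 bp downstream lay 365 L4-only summits (7.87%, 7.13 to 8.68) and 269 shared L4 summits (6.23%, 5.55 to 6.99), intervals that do not overlap. L1-only peaks had 418 summits there (7.91%, 7.21 to 8.67), a share close to that of L4-only peaks. Thus the side upstream of the 5′ end held more summits than the side downstream in the L4-only and shared L4 sets. From 500 to 1000 bp this turned round, with 353 L4-only summits upstream and 533 downstream (313 and 464 for shared L4). The promoter window, taken from 1000 bp upstream to 100 bp downstream of the assigned gene's 5′ end, was touched by 1215 L4-only peaks (26.2%, 25 to 27.5) and 1075 shared L4 peaks (24.9%, 23.6 to 26.2).

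**Figure D3:**
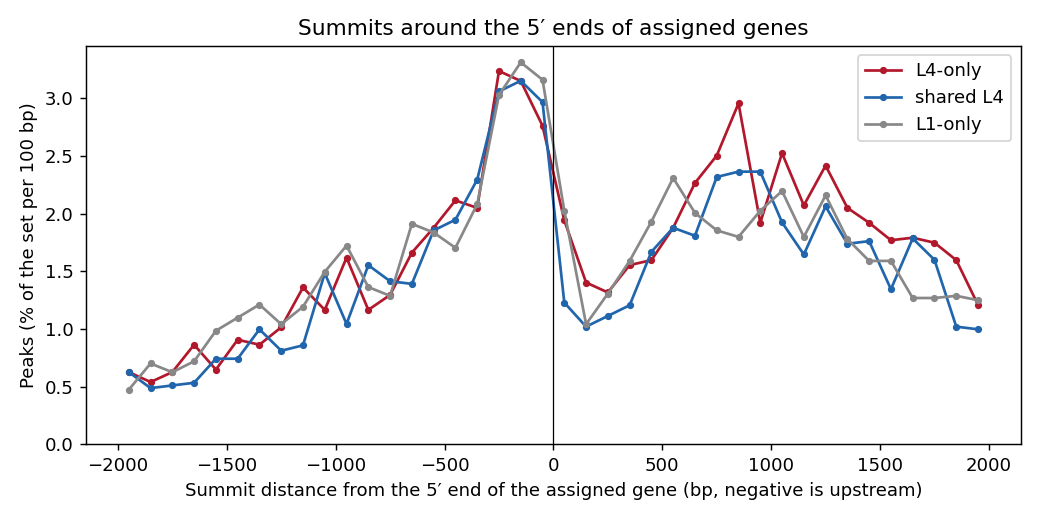
Summits per 100-bp step (y axis, % of each set) against distance from the 5′ end of the assigned gene (x axis, bp, negative upstream) for L4-only, shared L4 and L1-only peaks. All 3 sets hold more summits within 500 bp upstream than within 500 bp downstream, and the reverse from 500 to 1000 bp.

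L4-only peaks touched the promoter windows of 1191 of 27432 nuclear protein-coding genes (4.34%), the background against which the gene groups below are read. Of the 1191, 1129 had no L1 promoter peak at all. The other 62 divided into 33 with an L1-only promoter peak at another position and 29 with a shared L4 promoter peak as well. With a wider window, from 2000 bp upstream to 200 bp downstream, the count was 1573 genes (5.73%), and over gene bodies it was 1963 (7.16%). Shared L4 peaks touched the promoter windows of 1045 genes (3.81%) and L1-only peaks those of 1353 (4.93%). A further 17 assigned genes with such a peak had no entry in the gene table and are outside these counts.

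The strongest L4-only promoter peaks were at genes of varied function, 989 to 18138 bp from the nearest L1 peak. CK1, for choline kinase, had a fold of 34.03 with 49 fragments at chromosome 1, 26970270 to 26970585, with the summit 757 bp upstream of the 5′ end and 7984 bp between this peak and the nearest L1 peak. AT2G03370 had 33.70 (summit 569 bp upstream) and AT2G39870 had 33.65 (285 bp upstream). AT2G39870 stood out by its neighbour: an L1 peak with a fold of 15.57 lay 989 bp away. AMY3, for a plastid alpha-amylase of starch breakdown, had a fold of 30.92 with the summit 567 bp upstream. PAO5, a polyamine oxidase gene, had 29.85 at 223 bp upstream, and no L1 peak was within 15762 bp. PAPS1, for a poly(A) polymerase, and TOR1, for a microtubule-associated protein that keeps organs from twisting, each had a fold of 28.80 with 37 fragments. The remaining 3 of the 10 highest were AT1G46696 (29.29), AT1G43245 (28.02) and AT4G16770 (27.89). All 10 peaks lay wholly upstream of their genes, with summits 223 to 1081 bp from the 5′ end.

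L4-only promoter peaks of light reaction genes were mostly at antenna genes, and counts this small leave wide intervals. Of 20 light-harvesting antenna genes 3 did (15%, 5.24 to 36.0, against 4.34% of all genes). LHCB2.2, for a main antenna protein of photosystem II, had a fold of 18.75 with the summit 230 bp upstream and an L1 peak 1195 bp away. LHCB4.3, for a minor antenna protein, had 11.54, and an L1 promoter peak lay 329 bp from it. LHB1B2, for an LHCB1 protein, had a fold of 5 with 30 fragments, and an L1 peak lay 517 bp away. Reads could be shared between near-identical antenna genes, which was not examined. Of 13 photosystem I genes, PSAG alone had such a peak (8.59, summit 134 bp upstream), and of 16 electron transport and plastid ATP synthase genes, PGR5 of cyclic electron flow did (10.12, 324 bp upstream). None of 12 photosystem II genes did (interval up to 24.2%). Shared L4 promoter peaks stood at 3 antenna, 3 photosystem I, 2 photosystem II and 5 electron transport genes. L1-only promoter peaks stood at 3 antenna genes, as many as had an L4-only one, and at 1 photosystem II gene.

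L4-only promoter peaks of carbon fixation and chlorophyll synthesis genes had summits up to 477 bp from 5′ ends, a distance that the promoter window itself limits. Of 24 Calvin-Benson cycle genes 3 had one (12.5%, 4.34 to 31.0). RBCS3B, for a Rubisco small subunit, had a fold of 12.05 with the summit 176 bp inside the gene, and its near-identical neighbours could share reads. HCEF1, for a plastid fructose bisphosphatase, had 10.14 at 83 bp upstream. GAPA-2, for a glyceraldehyde phosphate dehydrogenase subunit, had 10.12 at 187 bp upstream, with no L1 peak within 23641 bp. All 3 had between 13 and 20 fragments, near the median of L4-only peaks. Of 28 chlorophyll synthesis genes 2 had one (7.14%, 1.98 to 22.6). CRD1, of the cyclase step that closes the chlorophyll ring, had 15.57 across the 5′ end, and CHLM, for the methyltransferase just before it, had 12.45 at 477 bp upstream.

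Regulators of light responses included a pair with higher folds. Of 29 light signalling genes 2 had an L4-only promoter peak (6.90%, 1.91 to 22.0). HY5, for a bZIP factor that promotes greening in light, had a fold of 21.32 with 29 fragments at chromosome 5, 3595100 to 3595440, the summit 275 bp upstream and an L1 peak with a fold of 8.35 at 526 bp. CRY3, for a cryptochrome of organelles, had 8.56 at 1116 bp upstream. Of 15 regulators of photosynthesis genes 2 had one, HY5 again and GNC, for a GATA factor that promotes chlorophyll formation, with 15.57 across the 5′ end. Of 22 clock genes CCA1, a core morning factor, had one (7.78, 519 bp upstream).

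Of the translation lists, the share with an L4-only promoter peak was above the background for ribosomal proteins and below it for translation factors. The intervals of both lists included the background. Of 58 genes matched as cytosolic ribosomal proteins 5 had one (8.62%, 3.74 to 18.6, against 4.34% of all genes). The highest 2 were RPL12-C (17.12, summit 24 bp upstream) and RPL12-A (14.79, 94 bp upstream), both of which encode plastid ribosomal proteins that the symbol rule placed in this list. RPL12-C also had a shared L4 promoter peak. RPL5B (11.68), PFL (9.70) and RPS15 (8.02), for cytosolic ribosomal proteins, had summits 757 to 789 bp upstream. Of 33 translation factor genes EIF2 had one (3.03%, 0.537 to 15.3), the peak 32 bp from an L1 peak described above. L1-only promoter peaks stood at 5 of these 33 and at 2 of the 58 ribosomal protein genes, against 4.93% of all genes. Shared L4 promoter peaks stood at 0 and 3 of them, against 3.81% of all genes. No gene of the NIK1, RPL10 and LIMYB list (7 members) had an L4-only peak assigned at any distance (interval up to 35.4%), where 14.2% of all genes had one.

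Defence, silencing and kinase lists ran from no L4-only promoter peak in the immunity genes to 14.7% of the calcium-dependent kinase genes. Of 27 genes of pattern recognition and salicylate defence none had an L4-only promoter peak (interval up to 12.5%). Of 27 genes matched as RNA silencing, AGO4 of RNA-directed DNA methylation had one, with a fold of 22.13, 54 fragments and the summit 1019 bp upstream. Of 52 receptor-like protein genes 2 had one, RLP13 (10.77) and RLP29 (9.34), and an L1 promoter peak lay 109 bp from the RLP29 peak. Of 44 cysteine-rich receptor kinase genes 3 had one: CRK31 (15.98), CRK23 (8.56) and CRK30 (7). Of 34 calcium-dependent kinase genes 5 had one (14.7%, 6.45 to 30.1), an interval that starts above 4.34%. Of the 30 lists, 4 had such an interval, this one included. With −log10 q of 10 or more 1 of the 34 was left, where 554 of all 27432 genes had an L4-only promoter peak. In the upper 50% of L4 peaks by fold 1 of the 34 was left as well, where 530 of the 27432 had one. Over gene bodies 3 of the 34 had an L4-only peak, against 7.16% of all genes. The 5 genes with a promoter peak were CPK29 (11.68), CPK25 (11.49), CDPK6 (10.12), CPK19 (8.56) and CPK4 (8.56), which encode calcium sensors with a kinase domain. CPK4 here and RPS15 above were named after their values were seen. Their pileups were low, from 11 to 17 fragments, 4 further genes of the list had a shared L4 promoter peak, and none had an L1-only promoter peak.

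Transcription factor families ran from below to slightly above the background. Of 125 MYB genes 3 had an L4-only promoter peak (2.40%, 0.820 to 6.82): MYB109 (13.27), MYB6 (9.68) and MYB98 (8). Of 71 WRKY genes 2 had one, WRKY11 (15.38) and WRKY71 (14.53). Of 99 NAC genes 5 had one (5.05%), led by NAC045, a factor of phloem development (17.90), NAC064 (16.67), NAC102 (10.98) and NAC042 (7.64). Of 37 genes matched as ERF or DREB factors 2 had one, ERF110 with a fold of 22.57 across the 5′ end and AT5G51190 (10.90). Of 98 MADS genes 7 had one (7.14%, 3.50 to 14.0), with AGL103 (20.24) and AGL52 (19.35) highest, then the floral regulators AP1 (10.12) and SHP1 (10.12). None of the 11 genes matched as bHLH factors had one, a list far smaller than the family.

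Metabolic, wall and hormone lists ran from no L4-only promoter peak in the sugar transporter genes to 9.09% of the cell wall genes. Of 234 cytochrome P450 genes 12 had an L4-only promoter peak (5.13%, 2.96 to 8.75). CYP72A10 had a fold of 23.53 with the summit 134 bp inside the gene, CYP710A1 of sterol synthesis had 14.01 at the higher of a pair of peaks, CYP77A6 of cutin synthesis had 14.01 and CYP71A27 had 12.45. Of 77 cell wall genes 7 had one (9.09%, 4.47 to 17.6), an interval whose lower bound is close to the background. EXP3, for an expansin, had 13.69 across the 5′ end, and the xyloglucan-modifying enzyme genes XTH18, XTH28 and XTH4 had 12.94, 10.14 and 9.88. Of 148 genes matched as auxin response 6 had one (4.05%), including SHY2, for an Aux/IAA repressor, with 20.24 and its summit 1 bp upstream of the 5′ end. ARF1 (AT1G23490, 10.12) was matched by its symbol but encodes an ADP-ribosylation factor, and AT4G13790 (10.39) and AT1G76190 (8.15) were matched as SAUR genes. Of 43 abscisic acid genes KOB1 (15.57) and SNRK2-8 (11.68) had one, and of 36 sugar transporter genes none did (interval up to 9.64%).

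The control lists, chosen as genes with no stated link to the study, also held strong L4-only promoter peaks. Of 13 seed storage and oleosin genes CRU2, for a seed storage globulin, had one, with a fold of 22.05 and 56 fragments. Of 41 constitutive genes UBQ11, a polyubiquitin gene, had one, with a fold of 19.62 and 51 fragments. Both had more fragments than any L4-only promoter peak of the light reaction, carbon fixation or translation genes named above.

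**Figure D4:**
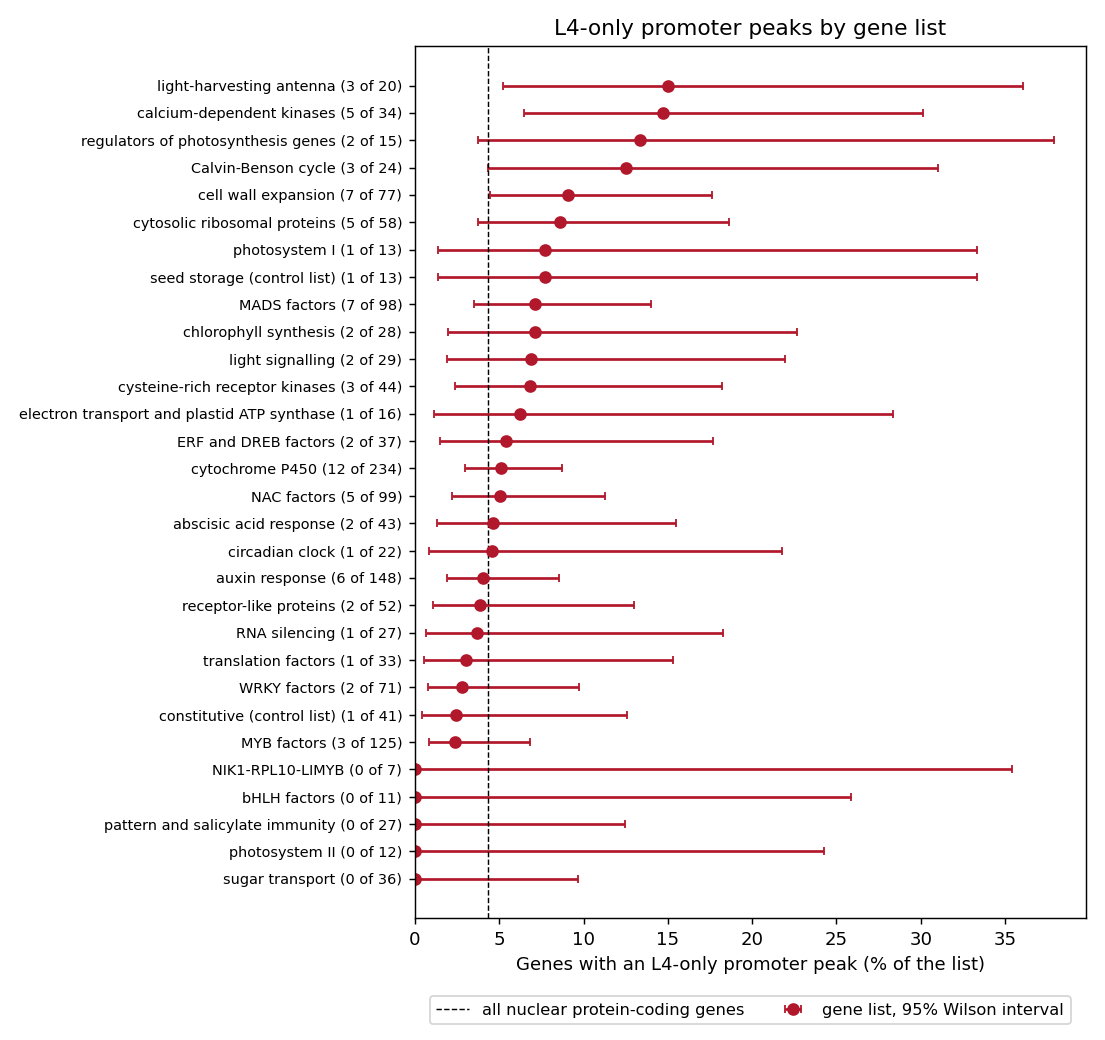
Share of each gene list with an L4-only promoter peak (x axis, %), with 95% Wilson intervals and the number of genes with a peak and in the list beside each name. The dashed line marks the 4.34% of all 27432 nuclear protein-coding genes, and the intervals of antenna, calcium-dependent kinase, cell wall and Calvin-Benson cycle genes start above it, the last at 4.344.

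L4-only peaks were spread over the chromosomes close to their lengths. Chromosome 1 held 26.6% (25.3 to 27.8) of L4-only peaks and 23.9% (22.6 to 25.2) of shared L4 peaks, where its length gives 25.5%. Chromosome 4 held 14.8% (13.8 to 15.9) of L4-only peaks and 16.6% (15.6 to 17.8) of shared L4 peaks, where its length gives 15.6%. In 240 bins of 500000 bp, L4-only peaks numbered 2 to 33 with a median of 19, and shared L4 peaks 2 to 54 with a median of 17. The counts of L4-only and shared L4 peaks were weakly related across these bins (Spearman's rho 0.087, Pearson's r 0.228). These bins come from 1 list, and the relation is a description.

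The densest bin for L4-only peaks lay on chromosome 2, at 3000001 to 3500000, a pericentromeric region known to hold a large insertion of mitochondrial DNA. It had 33 L4-only and 54 shared L4 peaks. Its L4-only peaks had a median fold of 4.72 with a median pileup of 38, where all L4-only peaks had 10.90 and 16, so their pileups were higher and their folds lower. The next bin, on chromosome 2 at 15000001 to 15500000, had 32 L4-only and 18 shared L4 peaks, with a median L4-only fold of 10.69. A tie of 3 bins on chromosome 1 followed, each with 31 L4-only peaks. The bin at 2000001 to 2500000 had 19 shared L4 peaks, a median L4-only fold of 10.29 and 16 of its L4-only peaks inside genes. The bin at 14000001 to 14500000 had 30 shared L4 peaks and a median L4-only fold of 8.72. The bin at 14500001 to 15000000 had 18 shared L4 peaks, a median L4-only fold of 5.95 and a median L4-only pileup of 28. In these last bins no L4-only peak lay inside a gene.

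**Figure D5:**
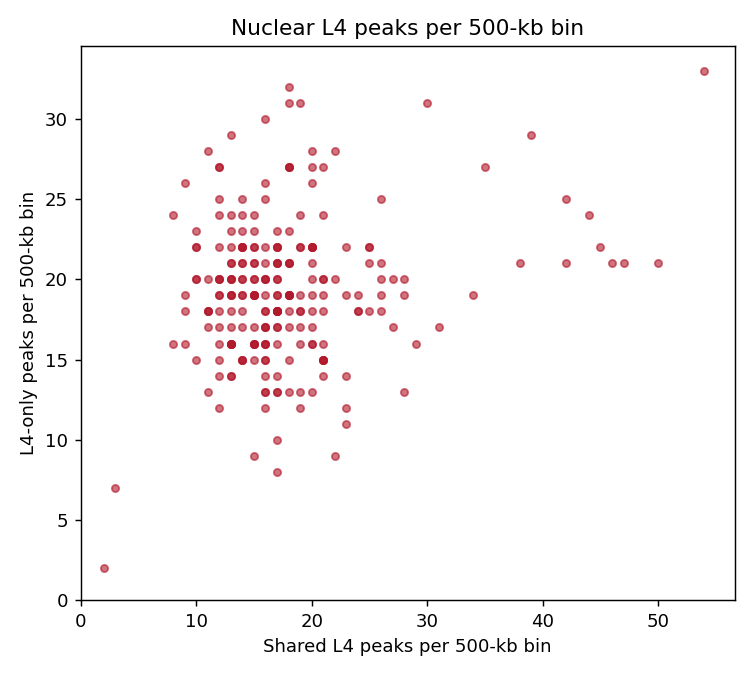
L4-only peaks (y axis) against shared L4 peaks (x axis) per 500000-bp bin, with 1 point for each of 240 bins. L4-only counts stay between 2 and 33, while shared counts reach 54.

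Most genes with an L4-only peak had a single one. Peaks were assigned to 3992 genes, of which 3571 had 1, 341 had 2 and 80 had 3 or more. The 5 genes with the most were AT1G38950 (16 peaks), AT3G33187 (15), AT5G30520 (13), AT1G38630 (11) and AT1G40083 (10). These stand at the edge of gene-poor stretches: the farthest L4-only peak assigned to each lay between 91175 and 243351 bp from the gene, so these counts describe regions rather than genes.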

How the data were processed

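The data were peak lists from YFP-LIMYB chromatin immunoprecipitation in 10 samples, 1 list per line. Peak calling used MACS2, per the submitters' processing notes. How reads were aligned, the build, the control and any pooling of replicates were not given in the sources used here. Depth is unknown. The deposited pileup is a signal in fragments, the deposited fold enrichment is a ratio, and the deposited q is a −log10 value. Each peak carries the nearest gene as the authors annotated it. A peak was across an end, inside or outside a gene as the files give it, and positions are those of the files. Symbols came from a RefSeq table of TAIR10.1, from which no coordinates were taken; it held 3902 of the 3992 assigned genes. The 30 gene lists were matched by symbol or synonym and hold some genes of the same name but another function. Members and lists were chosen with earlier results of these data known. Named peaks were the 10 highest folds, the 10 highest promoter folds, the 5 highest pileups, the 5 widest, the 5 nearest to an L1 peak, the 5 smallest shared overlaps, the 5 genes with most peaks, the 3 densest bins, all peaks of the NIK1 list and up to 4 promoter genes per list. No test was made; intervals are 95% Wilson intervals. The overlap step was tested on simulated data. Work used Python 3.11.15, numpy 2.4.6, pandas 2.3.3, scipy 1.17.1 and matplotlib 3.10.9.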

Additional observations from a re-analysis of the deposited data

Results flagged for a closer look

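Organelle DNA stands outside the nuclear comparisons, and L4 had peaks there that no L1 peak overlapped. These were 28 of 93 plastid peaks, with folds of 1.55 to 3.87 and a median pileup of 209 fragments, and 37 of 100 mitochondrial peaks, with folds of 2.33 to 7.77 and a median pileup of 46. They were noted because they are signal in data that the comparisons above did not use. No control sample gave a level to set them against.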

How the results depend on the processing

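No paired analysis was possible because the lists carry no columns for replicates, so none could be left out. The share of L4-only peaks depended on what counted as shared: 53.7% when 50% of the L4 peak had to be covered, 55.9% with L1 summits within 100 bp and 48.3% with L1 peaks within 500 bp. With the upper 50% of L1 peaks by fold it was 69.2%, with a median width of 228 bp, 29.2% of peaks inside genes and 11.1% beyond 10000 bp. With L4 peaks of −log10 q of 10 or more it was 41.7% (2097 peaks, 554 promoter genes), and medians were a fold of 14.01, a pileup of 21, a −log10 q of 14.57 and a width of 258 bp. In the upper 50% of L4 peaks by fold it was 43.0% (1926 peaks, 530 promoter genes), with medians of 14.01, 20, 14.68 and 255 bp, 34.2% inside genes and 4.72% beyond 10000 bp. Fewer peaks enter under both limits by their construction. With the gene body or any distance in place of the promoter window, 1963 and 3902 genes had an L4-only peak. A pair of alternatives was chosen after seeing the data. With peaks within 10000 bp of genes the share was 53.4%, with 37.4% upstream, 34.6% inside, 14.8% downstream and, by construction, 0 beyond. With a pileup of 13 to 15 it was 64.0% (1462 peaks, 382 promoter genes), with medians of 10.12, 14, 7.97 and 205 bp, 36.1% upstream, 5.2% across the 5′ end and 7.46% beyond 10000 bp. The 10 peaks with the highest fold stayed L4-only under each change of the overlap rule or the L1 list, as none had an L1 peak within 500 bp. The other 67 summary values moved by less than their interval or, for counts, by less than 1.5 times. Each describes the L4-only set alone, so these values cannot show whether its differences from shared L4 peaks held. Of the counts per gene list and other values, 132 moved further and 238 did not. Under the upper 50% by fold, the antenna, Calvin-Benson cycle and cell wall lists had 1, 1 and 2 genes with an L4-only promoter peak. The lists hold 20, 24 and 77 genes, and 530 of all 27432 genes had such a peak under that limit. With −log10 q of 10 or more the lists had 3, 1 and 2 such genes, where 554 of the 27432 had one. Motif searches were not run, as no promoter sequence was used here. The lack of replicates and of depth limits every comparison.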

Other observations

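Outside promoter windows, several lists had L4-only peaks with higher folds than the promoter peaks of other genes in the same list. The genes named here had no L4-only promoter peak themselves. These were chosen after their values were seen, and no test was made. NST1, a NAC factor that switches on secondary wall formation, had a fold of 29.07 inside the gene, and RLP45, a receptor-like protein gene, had 28.02 inside. NAC13, for a factor of mitochondrial stress signalling, had 26.88 inside, and AGL36, an imprinted MADS gene, had 27.24 at 2766 bp upstream. HEME1, for a uroporphyrinogen decarboxylase of tetrapyrrole synthesis, had 23.64 inside, above both promoter peaks of its list. NPR4, for a salicylate receptor, had 22.79 at 1687 bp upstream, although no gene of the immunity list had a promoter peak. OLEO3, an oleosin gene of the control list, had 30.57 with 96 fragments at 4571 bp upstream.

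Counted over gene bodies, L4-only peaks touched 1963 of all 27432 genes (7.16%). Of 125 MYB genes 14 had such a peak, led by MYB116 (23.38), as had 7 of 71 WRKY genes and 6 of 24 Calvin-Benson cycle genes, including GAPB (14.79) and RPE (13.01). The constitutive control list had 6 of 41, a share above that of the MYB or WRKY genes. Lower shares were found for 6 of 148 auxin response, 15 of 234 cytochrome P450, 2 of 44 cysteine-rich receptor kinase and 2 of 37 ERF or DREB genes. In the antenna list 5 of 20 genes had one, with LHCB4.2 highest at a fold of 21.71 across its 3′ end. None of the 7 genes of the NIK1 list had one (interval up to 35.4%).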
